A study of Mus musculus with 22 samples.

Results

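The passage from prometaphase to ana/telophase in cells that kept CTCF was followed over all 6376 chromatin domain boundaries and all 16370 chromatin loops of the deposited tables. It rests on 4 of the 22 Hi-C libraries of the series, namely 2 of prometaphase cells and 2 of ana/telophase cells, all without auxin. The libraries were chosen by their labels alone, and no boundary or loop was left out.

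All cells were G1E-ER4, a mouse proerythroblast line descended from the GATA1-null line G1E, and both of their CTCF alleles were fused to an auxin-inducible degron and mCherry. Every culture was arrested with 200 ng/ml nocodazole for 7 to 8.5 h. Prometaphase cells (labelled 0h) were taken at the arrest, expressed OsTiR-IRES-GFP, and were sorted for the mitotic antigen pMPM2 and a replicated DNA content. Ana/telophase cells (labelled 30min, with a release of 25 min in the sample protocol) expressed OsTiR-IRES-GFP-MD, in which GFP carries a mitotic degron, and were sorted for reduced GFP and the same DNA content. Cells of both stages were gated for mCherry with the same number of cells per library. Since each stage had its own OsTiR derivative and its own sort, stage, derivative and gate cannot be told apart. The sources used here do not say whether the cells are 1 clone, and Hi-C gives no expression by which the cell type could be checked. The study methods report a translocation of chromosome 3 in these cells.

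CTCF is a DNA-binding protein that halts the ring complex cohesin as it extrudes chromatin loops, preferentially where paired CTCF motifs point toward each other. Domain boundaries are positions that contacts seldom cross, and many lie at CTCF sites or active promoters. On entry into mitosis, condensins compact the chromosomes and both loops and domains are largely lost, to be rebuilt as the daughter nuclei form. Contacts between cis-regulatory elements (CREs), that is, enhancers and promoters, can also form without CTCF at their ends.

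The authors merged the replicates for the 2 call tables used here, so each boundary or loop has 1 value per stage in them. These tables allow no test between the stages and give no error between cultures, and the maps of the single libraries were not analysed here. A change is called here where the value was at least 2-fold (boundaries) or 1.5-fold (loops) different. Most medians come with an SD taken over the medians of the 20 chromosomes, or of fewer where a group has few members on some, a measure of spread along the genome and not between cultures. The authors' sequencing summary lists fewer valid read pairs for the merged prometaphase map than for the ana/telophase map, and the contacts behind a single value are not given in the tables, so the precision of single values is unknown. The prometaphase maps with and without auxin serve as a yardstick. They differ in treatment too, so their spread may hold an effect of auxin, which was not tested. Between them 13% of boundaries were at least 2-fold higher and 17.7% at least 2-fold lower with auxin, and 6.46% of loops were at least 1.5-fold higher and 9.52% at least 1.5-fold lower. Both lists were also drawn up by the authors partly on signal after prometaphase. The domains from which boundaries were taken had to show a higher score than in prometaphase in a later map. Boundaries called without auxin were moved to the nearby bin with the lowest mid-G1 insulation score without auxin. Loop pixels found in over 6 maps out of 8 were discarded. Loop pixels recovered in a further step had to pass a strength threshold after prometaphase. Among these, the pixels with the highest prometaphase values without auxin were removed. Part of the gain, the rarity of losses and the differences with auxin below may therefore be built into the lists. This was not tested.

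Some anchors of loops that gained strength hold the core CTCF consensus, and their sequences are shown because paired motifs that face each other are the arrangement described above. The first 2 loops are the structural loops with the largest difference in strength among those with facing motifs and were chosen after their values were seen. The others are an anchor of the structural 10 kb loop with the largest difference in strength, and of a loop above 1000 kb that starts at Myc, both described further on. The right anchors of these last 2 loops hold no match, so they have no facing pair. Each line gives 30 bases of mm9 (NCBIM37) read 5′ to 3′ on the strand of the motif, with the 13 bases of the match, whose coordinates are given, in capitals.
Chromosome 14 loop, left anchor, forward strand, chr14:66996865-66996877: gaatatgaCCAGCAGGTGGCGttcgtactg
Chromosome 14 loop, right anchor, reverse strand, chr14:67403937-67403949: catcctggCCAGCAGAGGGCGctgatgcct
Chromosome 9 loop, left anchor, forward strand, chr9:62143003-62143015: accacagcCCACTAGGGGGCAccaaacaac
Chromosome 9 loop, right anchor, reverse strand, chr9:62397819-62397831: agatatgtCCACCAGAGGGCGcaccggcca
Rgs6 loop, left anchor, forward strand, chr12:84213466-84213478: cccagtgaCCAGCAGAGGGCAcagaaacac
Myc loop, left anchor, forward strand, chr15:61814986-61814998: ctctgtggCCAGTAGAGGGCAcacttactt
The Myc match lay 2.0 kb from the transcription start of Myc, outside any protein-coding gene, and the Rgs6 match lay in an intron of Rgs6. The chromosome 14 loop (chr14:66990001-67000000 to chr14:67400001-67410000) had a strength of 0.735 in prometaphase and 4.19 in ana/telophase, where strength is the observed over the locally expected contacts and 1 equals background. The chromosome 9 loop (chr9:62140001-62150000 to chr9:62390001-62400000) went from 0.991 to 4.38. With auxin, which degrades CTCF, the same 2 loops went from 0.989 to 1.90 and from 1.129 to 1.81. Both were thus below or close to background in either prometaphase map, and since they were picked for their rise without auxin, their smaller rise with auxin is no independent finding. The same holds for the other loops named by their change.

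Boundaries were strengthened across the genome between prometaphase and ana/telophase. Boundary strength is ΔIS, by how much the unlogged insulation score at the boundary lies below its highest value within 120 kb. Its median over 6376 boundaries was 0.0937 in prometaphase (quartiles 0.0562 and 0.141) and 0.277 in ana/telophase (quartiles 0.111 and 0.502). The median log2 ratio of single boundaries was 1.52 (SD 0.13 over 20 chromosomes, quartiles 0.52 and 2.31). At least 2-fold higher values were found at 4115 boundaries (64.5%) and at least 2-fold lower values at 381 (5.98%). The latter count depended on faint values, being 18 with a pseudocount of 0.1 and 27 among boundaries of at least 0.2 in mid-G1. In total 83.7% of boundaries were above their prometaphase value. The interquartile range of the log2 ratio, 1.79, exceeded the 1.24 found between the 2 prometaphase maps. Every chromosome gained, up to a median log2 ratio of 1.80 on chromosome 19, and chromosome 3, which carries the translocation, had 1.36.

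**Figure D1:**
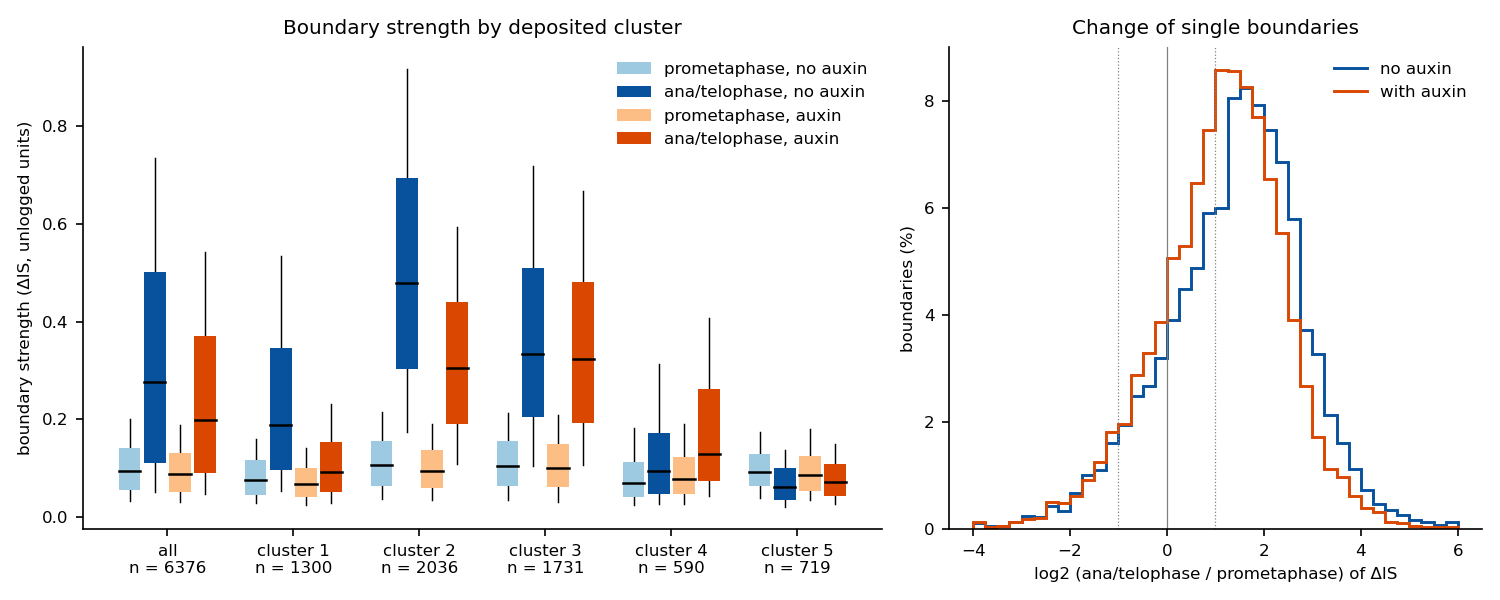
Left, boundary strength (ΔIS, unlogged units) of all boundaries and of the 5 deposited clusters in prometaphase and ana/telophase, without and with auxin. Boxes span the quartiles, black lines mark medians and thin lines reach the 10th and 90th percentiles of boundaries. Right, share of boundaries by the log2 ratio of ana/telophase to prometaphase in steps of 0.25, with dotted lines at 2-fold changes and values beyond the axis in the end bins. The median without auxin went from 0.0937 to 0.277, cluster 5 was lower in ana/telophase, and the curve without auxin lies to the right of that with auxin.

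Close to the middle of the build-up toward G1 had been reached by ana/telophase: the mean ΔIS had made 48.1% (SD 2.06 over chromosomes) of its way from the prometaphase to the mid-G1 level. The next step, from ana/telophase to early-G1, brought a median log2 ratio of 0.60 (SD 0.03) and a 2-fold gain at 18% and loss at 4.09% of boundaries, and it uses the same ana/telophase map. The order of boundary strengths in ana/telophase was already close to that of mid-G1, with a Spearman correlation across boundaries of 0.92, against 0.46 between prometaphase and ana/telophase. Boundaries are not independent replicates, and the maps differ in depth. The mid-G1 map without auxin merges 3 libraries, and the prometaphase and ana/telophase maps merge 2 each. Boundaries called without auxin were also placed by their mid-G1 insulation, and how far this raises the correlation with mid-G1 was not tested. By mid-G1 strength, boundaries above 1 had a median log2 ratio of 2.43 and 97.3% were at least 2-fold higher, those from 0.5 to 1 had 1.88, and those from 0.2 to 0.5 had 1.19. The 1714 boundaries under 0.2 in mid-G1 had a median log2 ratio of 0.02, with 21.6% at least 2-fold higher and 20.7% at least 2-fold lower. Since mid-G1 and ana/telophase strengths go together, this gradient is largely set by the split. The weakest group was about as often lower as higher.

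The deposited clusters group boundaries by their post-mitotic response to auxin, including the ana/telophase maps, so their values are a description. Cluster 2 had the largest median log2 ratio, 2.14 (SD 0.10), with 89.2% of 2036 boundaries at least 2-fold higher. Cluster 3 followed with 1.63 (SD 0.10) and 75.2% of 1731 boundaries, and cluster 1 with 1.304 (SD 0.27) and 58.2% of 1300 boundaries. Cluster 4 had 0.42 (SD 0.25) over 590 boundaries. Cluster 5, with 719 boundaries that the study methods regard as largely spurious and leave out, was the exception with a median log2 ratio of -0.58 (SD 0.33): 34.6% of them were at least 2-fold lower, and they made up 249 of the 381 boundaries that fell. With auxin the same step gave 1.64 in cluster 2, 1.65 in cluster 3, 0.48 in cluster 1, 0.83 in cluster 4 and -0.28 in cluster 5. The boundaries that fell started near the level of all boundaries, with a median ΔIS of 0.0982 in prometaphase, and stood at 0.0287 in ana/telophase, and 84 of the 381 also fell by 2-fold or more with auxin.

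Boundaries near genes and at loop anchors gained more than the others. A protein-coding transcription start (GENCODE vM1) lay within 10 kb of 2261 boundaries, whose median log2 ratio was 1.82 (SD 0.08), against 1.31 (SD 0.21) for the 4115 without one. Boundaries within 10 kb of an anchor of a structural or dual-function loop, the classes with CTCF and cohesin at both ends, had a median of 2.12 (SD 0.12, n = 1794), and 89.1% of them were at least 2-fold higher. Those at a CRE loop anchor but at none of the former classes had 1.72 (SD 0.25, n = 363), those at uncategorised anchors alone 1.74 (SD 0.33, n = 237), and those with no loop anchor 1.07 (SD 0.20, n = 3982). At CTCF loop anchors a transcription start made little difference, with 2.07 (SD 0.19) with and 2.19 (SD 0.16) without one. Away from any anchor the values were 1.58 (SD 0.26) and 0.90 (SD 0.24). Among boundaries of at least 0.2 in mid-G1, a filter that itself favours boundaries with a gain, the gap by transcription start was 0.08 instead of 0.52 and the gap by anchor 0.45 instead of 1.04. The core CTCF consensus occurred in 7.64% of boundary bins and in 3.41% of all 10 kb bins, and the 487 boundaries with a match had a median of 2.00 (SD 0.17), against 1.47 (SD 0.13) without. Across the 2394 boundaries with a loop anchor within 10 kb, the rise of ΔIS and the largest rise of loop strength had a Pearson correlation of 0.30 and a Spearman correlation of 0.30, which both draw on the same maps.

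The 4 boundaries with the largest rise all lay at structural or dual-function loop anchors and all belonged to cluster 2. The boundary at the transcription start of Hoxc10, a homeobox gene of the posterior body plan (chr15:102790001-102800000), went from 0.460 to 2.22, and with auxin from 0.509 to 1.49. A boundary further along the same chromosome, with Smug1, a uracil-DNA glycosylase gene, as its nearest gene (chr15:103000001-103010000), went from 0.239 to 1.78, and with auxin from 0.322 to 0.981. The boundary whose nearest protein-coding gene is Ubash3b (chr9:41010001-41020000), went from 0.0910 to 1.53, and with auxin from 0.0934 to 1.01. A boundary whose nearest genes were Gm6772 and Angel1 (chr12:88110001-88120000) went from 0.0788 to 1.52, and with auxin from 0.110 to 0.902. They were picked for their rise without auxin, so that their smaller rise with auxin is no independent finding. In mid-G1 the 4 boundaries stood at 2.89, 2.57, 2.37 and 2.39, so 62.4 to 72.6% of the rise had been made by ana/telophase.

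The 3 boundaries with the largest decrease in ΔIS did not reach a 2-fold loss. The boundary at the transcription start of Serpina11, within a cluster of serine protease inhibitor genes (chr12:105220001-105230000), had the highest prometaphase value of all, 2.96, and stood at 1.67 in ana/telophase. It was as high with auxin, at 2.96, and lower in ana/telophase there too, at 2.05. The boundary at D2hgdh, which encodes a dehydrogenase of D-2-hydroxyglutarate (chr1:95720001-95730000), went from 2.25 to 1.19 and returned to 2.17 in early-G1, whereas with auxin it went from 1.34 to 1.57. The boundary next to Ighv1-73, an immunoglobulin heavy chain variable gene (chr12:117090001-117100000), went from 1.28 to 0.667 without auxin and from 0.749 to 0.989 with it. The third highest prometaphase boundary, at the vomeronasal receptor gene Vmn1r176 (chr7:24620001-24630000), stood at 1.75 in prometaphase and 1.87 in ana/telophase, and between 1.65 and 1.99 in the other 6 maps. For the boundaries at D2hgdh and Ighv1-73 the prometaphase values of the 2 maps differed by about as much as the stages did.

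Loops were also stronger in ana/telophase, in every category. Over all 16370 loops the median strength was 1.08 in prometaphase and 1.55 in ana/telophase. The median log2 ratio was 0.52 (SD 0.03 over chromosomes, quartiles 0.25 and 0.83), with medians of single chromosomes from 0.47 on chromosome 17 to 0.62 on chromosome X. At least 1.5-fold gains were found at 7169 loops (43.8%), at least 1.5-fold losses at 42 (0.257%), and 91.2% of loops were above their prometaphase value. A strength of at least 1.5 was found at 1534 loops (9.37%) in prometaphase and at 8977 (54.8%) in ana/telophase. Only 186 of the 1534 were under 1.5 in ana/telophase. The interquartile range of the log2 ratio, 0.58, was little above the 0.50 between the 2 prometaphase maps, whose median log2 ratio was -0.04. Single loops thus scattered between the prometaphase maps without and with auxin nearly as widely as between stages. One loop, a CRE loop on chromosome X with an anchor at Pgk1, a glycolytic enzyme gene, was listed at 0 in prometaphase and at 2.07 in ana/telophase and has no ratio.

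Structural loops have CTCF and cohesin at both anchors and CREs at no more than 1 of them, dual-function loops have all of these at both anchors, and CRE loops have CREs at both anchors and CTCF with cohesin at no more than 1. Structural loops went from a median of 1.06 to 1.62 (median log2 ratio 0.61, SD 0.04), and 2549 of 4837 (52.7%) gained at least 1.5-fold. Dual-function loops went from 1.11 to 1.64 (0.57, SD 0.06), and 1646 of 3370 (48.8%) gained. CRE loops went from 1.10 to 1.52 (0.47, SD 0.05), and 1794 of 4642 (38.7%) gained. The 3521 loops that fit none of these classes went from 1.07 to 1.45 (0.41, SD 0.05), and 1180 of them (33.5%) gained. Structural and dual-function loops overlapped within their SD over chromosomes, and both were above the uncategorised loops by more than it.

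The categories differed more in how much of their rise to mid-G1 had been made. By ana/telophase the mean strength of CRE loops had made 77.7% (SD 4.98) of its rise to mid-G1, that of dual-function loops 61.1% (SD 3.39), that of uncategorised loops 48.7% (SD 3.45) and that of structural loops 44.7% (SD 2.23). The following step to early-G1, in which 7.96% of all loops gained and 0.415% lost at least 1.5-fold, brought a median log2 ratio of 0.12 (SD 0.02) in CRE loops and 0.30 (SD 0.01) in structural loops. The ana/telophase value was above the mid-G1 value in 37.8% of CRE loops, 19.8% of dual-function loops and 2.23% of structural loops. Ana/telophase was the highest of the 4 stages for 907 CRE loops (19.5%) and for 49 structural loops (1.01%). As a group mean, CRE loops were thus nearer their mid-G1 strength at a stage when structural loops were still under the middle of their rise. The CRE mean mixes unlike sets. The share was 116% for the 1410 CRE loops called at no stage without auxin and 100% for those first called in ana/telophase. It was 68.0% for those first called in early-G1 and 54.2% for those first called in mid-G1. Structural loops had 77.3% (n = 72), 56.3%, 45.2% and 38.1% in the same order, a division that uses the same maps.

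**Figure D2:**
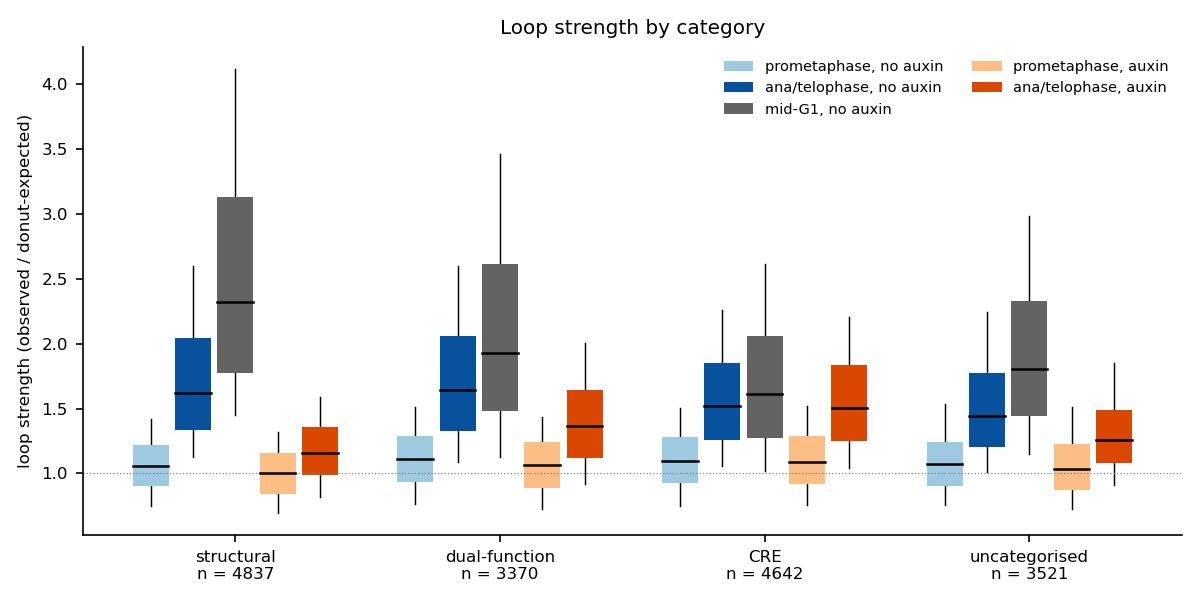
Loop strength (observed over donut-expected contacts) of each loop category in prometaphase, ana/telophase and mid-G1 without auxin, and in prometaphase and ana/telophase with auxin. Boxes span the quartiles, black lines mark medians, thin lines reach the 10th and 90th percentiles of loops, and the dotted line marks a strength of 1. All categories start near 1, structural loops go to 1.62 in ana/telophase and 2.32 in mid-G1, and CRE loops go to 1.52 and 1.61.

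The same step in auxin-treated cells differed most for structural loops. Auxin (1 mM) was added in the last 4 h of nocodazole to the same cell line, in 2 further libraries per stage. The median log2 ratio with auxin was 0.21 (SD 0.03) for structural loops, 0.36 (SD 0.07) for dual-function loops, 0.46 (SD 0.05) for CRE loops and 0.27 (SD 0.04) for uncategorised loops. The median difference of single loops, without minus with auxin, was 0.41 (SD 0.06) for structural loops, 0.19 (SD 0.06) for dual-function loops, 0.12 (SD 0.05) for uncategorised loops and 0.02 (SD 0.04) for CRE loops. CRE loops called at no stage without auxin, 1410 of 4642, had a negative median difference, -0.12. Those first called in ana/telophase, early-G1 and mid-G1 had 0.07, 0.06 and 0.11. Structural loops called at no stage without auxin were only 72 of 4837 and had -0.02. Those first called in ana/telophase, early-G1 and mid-G1 had 0.63, 0.41 and 0.34. This division uses the same maps, and the categories differ in how many of their loops were called without auxin. At least 1.5-fold gains with auxin were found at 26.5% of all loops and 19.2% of structural loops, and losses at 1.61% of all loops. In ana/telophase a strength of 1.5 was reached by 60.6% of structural loops without auxin and 13.9% with it, and by 52.4% and 51.0% of CRE loops. For boundaries the median with auxin was 1.22 (SD 0.12), with 57.4% at least 2-fold higher and 6.34% at least 2-fold lower, and the median difference of single boundaries was 0.26 (SD 0.07). With 1 map per condition, these differences between treatments have no replicate test.

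Loop size mattered, and the way it did depended on the pixel size at which a loop was called. The loops spanned 70 to 2000 kb. Over all structural loops the median log2 ratio was 0.40 (SD 0.10) up to 100 kb, 0.56 (SD 0.08) from 100 to 200 kb, 0.70 (SD 0.13) from 200 to 300 kb, 0.75 (SD 0.11) from 300 to 500 kb, 0.70 (SD 0.13) from 500 to 1000 kb and 0.57 (SD 0.19) above 1000 kb. The values for CRE loops stayed between 0.46 and 0.51 in all 6 size bins. Loops called in 25 kb bins, however, had a median log2 ratio of 0.34 (SD 0.05, n = 3553), against 0.59 (SD 0.06, n = 12817) for those called in 10 kb bins, and all loops up to 100 kb were of the 10 kb kind. Among 10 kb loops alone, structural loops went from 0.40 up to 100 kb to 1.03 (SD 0.24) from 500 to 1000 kb and 0.99 (SD 0.23) above 1000 kb. CRE loops of this kind went from 0.47 (SD 0.10) to 0.82 (SD 0.15) and 0.94 (SD 0.19), and dual-function loops from 0.52 (SD 0.08) to 0.83 (SD 0.30) and 0.94 (SD 0.19). The difference between loops up to 200 kb and above 500 kb was -0.16 (SD 0.13) for all structural loops and -0.50 for those of the 10 kb kind, and for CRE loops it was -0.00342 (SD 0.11) and -0.35.

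The share of the rise to mid-G1 reached by ana/telophase was lowest above 1000 kb over loops of both pixel sizes, and it was no lower at 200 to 300 kb than in the shortest loops. It was 43.5% (SD 5.28) for structural loops up to 100 kb, 49.8% (SD 3.67) from 200 to 300 kb and 29.1% (SD 5.65) above 1000 kb. In CRE loops it was 85.4% (SD 10.2), 87.9% (SD 13.7) and 60.7% (SD 14.2) in the same bins, and in dual-function loops 62.6% (SD 5.32), 64.7% (SD 5.95) and 48.6% (SD 10.5). In structural loops above 1000 kb the next step brought a further log2 ratio of 0.39, against 0.27 up to 100 kb. Only for structural loops did the gap between the bin from 200 to 300 kb and that above 1000 kb exceed the sum of both SDs. Among 10 kb loops alone, the share above 1000 kb was 29.0% (SD 6.26) for structural loops, but for CRE loops it was 70.9% (SD 20.1), no lower than the 70.0% (SD 15.7) from 500 to 1000 kb.

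**Figure D3:**
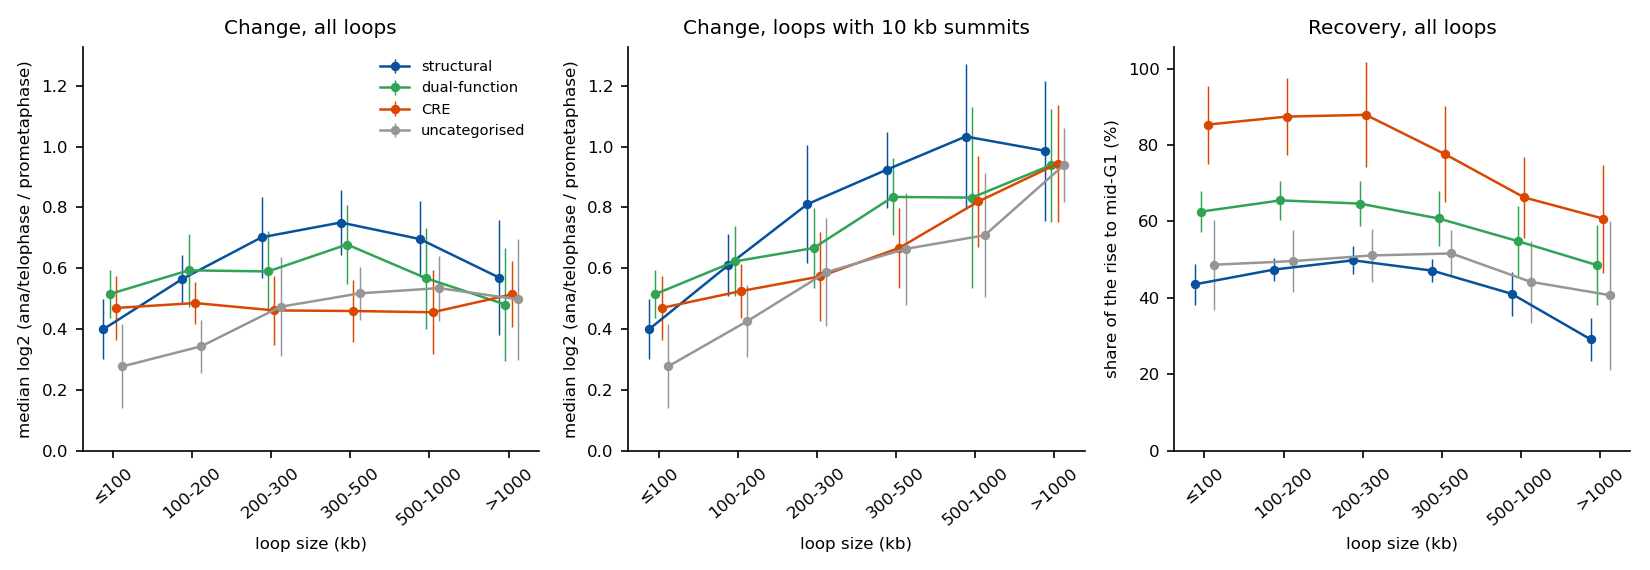
Median log2 ratio of loop strength, ana/telophase over prometaphase, by loop size (kb) for all loops (left) and for loops called in 10 kb bins (middle), and the share of the rise to mid-G1 reached by ana/telophase (right, %). Points are loop categories and bars are the SD over chromosomes. Structural loops peak at 0.75 over all sizes but reach 1.03 among 10 kb loops, and their recovery falls to 29.1% above 1000 kb.

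The core CTCF consensus (13 bases, no mismatch, searched on both strands) occurred in 26.0% of the anchor bins of structural 10 kb loops, 20.7% of dual-function, 6.78% of CRE and 9.81% of uncategorised ones, against 3.41% of all 10 kb bins. Where each anchor of a structural loop had matches on 1 strand only, 276 loops had them facing each other, 109 in tandem and 7 pointing apart. Facing pairs had a median log2 ratio of 0.68 (SD 0.19) and tandem or divergent pairs 0.51 (SD 0.17). The difference was 0.17 (SD 0.37 over chromosomes), and it was not tested. Among 10 kb loops, facing pairs had the higher median in 5 of 6 size bins, with as few as 2 tandem or divergent pairs in a bin. Structural loops without a match at either end had 0.60 (SD 0.06), close to the 0.62 (SD 0.08) of those with a match at 1 end. A strict consensus misses many CTCF sites, and the CTCF occupancy that defines the categories was not examined here.

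The authors' stage of first detection in cells without auxin uses these same maps. The 2900 loops first called in ana/telophase went from a median of 1.15 to 2.01, and 66.3% gained at least 1.5-fold. The 5592 loops first called in early-G1 nevertheless had a median log2 ratio of 0.53 (SD 0.04) in the earlier step, the 5491 first called in mid-G1 had 0.48 (SD 0.05), and the 2386 called at no stage without auxin had 0.29 (SD 0.05). The single loop called in prometaphase, which has no protein-coding gene at its anchors (chr17:27380001-27390000 to chr17:27540001-27550000), had a strength of 3.21 in prometaphase and 2.88 in ana/telophase, and between 2.66 and 3.27 in the other 6 maps. Loops that started at 1.5 or more had a median log2 ratio of 0.24 (SD 0.07), against 0.54 (SD 0.03) for the rest, a split made on the denominator of the ratio, which by itself lowers the ratio of the former.

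By difference in strength, the largest rises among structural loops of the 10 kb kind were found on chromosomes 12, 1 and 15. A 620 kb loop with its left anchor in Rgs6, a regulator of G protein signalling (chr12:84210001-84220000 to chr12:84830001-84840000), went from 2.67 to 9.55, and with auxin from 2.52 to 2.90. A 250 kb loop with its left anchor in Fam163a (chr1:157920001-157930000 to chr1:158170001-158180000) went from 2.90 to 8.27, and with auxin from 2.82 to 4.66. A 270 kb loop on chromosome 15 with no protein-coding gene at its anchors (chr15:39690001-39700000 to chr15:39960001-39970000) went from 1.39 to 5.84, and with auxin from 0.436 to 1.73. The first pair was above background in both prometaphase maps, and in mid-G1 the 3 loops reached 13.9, 12.2 and 7.72.

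Dual-function loops with large rises included one on chromosome 10 and one on chromosome 4. A 620 kb loop from Aldh8a1, an aldehyde dehydrogenase gene (chr10:21100001-21110000 to chr10:21720001-21730000), went from 1.42 to 5.82, and with auxin from 0.880 to 1.96. A 400 kb loop from Mtap, the methylthioadenosine phosphorylase gene (chr4:88790001-88800000 to chr4:89190001-89200000), went from 1.22 to 5.53, and with auxin from 0.959 to 1.70. Both lay between 0.880 and 1.42 in the prometaphase maps with and without auxin. The 1.42 of the Aldh8a1 loop without auxin was above the upper quartile of dual-function loops in that map, 1.29.

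The CRE loops with the largest rises lay beside these same loops. A 190 kb CRE loop inside the Fam163a structural loop (chr1:157960001-157970000 to chr1:158150001-158160000) went from 3.06 to 7.73 and, with auxin, from 3.26 to 6.77. A 640 kb CRE loop from Rgs6 (chr12:84170001-84180000 to chr12:84810001-84820000) went from 1.95 to 5.29, and with auxin from 2.19 to 3.15. A 600 kb CRE loop next to the Aldh8a1 loop (chr10:21120001-21130000 to chr10:21720001-21730000) went from 1.31 to 4.65, and with auxin from 1.20 to 1.39. Their anchors lie close to those of the neighbouring loops, and the last pair shares an anchor, so the values are not independent. Among loops above 1000 kb, a 1010 kb uncategorised loop between Abce1, a ribosome recycling factor, and Smarca5, a chromatin remodeller (chr8:82220001-82230000 to chr8:83230001-83240000), went from 2.52 to 6.70 without auxin but from 5.63 to 4.67 with it. The 1670 kb dual-function loop from the transcription start of Myc, a growth regulator (chr15:61810001-61820000 to chr15:63480001-63490000), went from 1.45 to 5.23, above its 4.21 in mid-G1, and with auxin from 0.950 to 2.67.

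The 42 loops that fell by 1.5-fold or more comprised 20 uncategorised, 14 CRE, 4 dual-function and 4 structural loops. Their median strength was 1.89 in prometaphase and 1.15 in ana/telophase, 16 of them were called at no stage without auxin, and 3 also fell by that much with auxin. The loops with the largest decrease among structural, dual-function and CRE loops with 10 kb summits that were called without auxin are given next, whether or not they passed the threshold, while the uncategorised loops are given by count only. The structural loop from BC055004 (chr5:138660001-138670000 to chr5:139090001-139100000) had 3.52, 1.43, 6.19 and 4.19 in the 4 successive stages and 0.916 and 0.855 in prometaphase and ana/telophase with auxin. The structural loop from the start of Snrnp40, a spliceosome component (chr4:130030001-130040000 to chr4:130150001-130160000), was at 6.04 and 4.65, and with auxin at 5.199 and 3.77. The dual-function loops were at Gpr82, an orphan receptor gene (chrX:12780001-12790000 to chrX:13230001-13240000), with 3.53 and 2.21, and at Gramd4 (chr15:85450001-85460000 to chr15:85950001-85960000), with 2.02 and 1.19. With auxin these 2 were at 1.23 and 1.45, and at 0.792 and 0.907. The CRE loop between Tbc1d14 and D5Ertd579e (chr5:36920001-36930000 to chr5:37080001-37090000) was high throughout, at 6.55 and 5.07 without and 6.25 and 4.95 with auxin. The CRE loop from BC024659 to Hivep1, a zinc finger gene (chr13:41340001-41350000 to chr13:42140001-42150000), had 2.24 and 1.38, and 1.74 and 1.08 with auxin. All but those at Snrnp40 and Tbc1d14 passed the 1.5-fold threshold, and those at Snrnp40, Tbc1d14 and Hivep1 were well below their prometaphase value with auxin too.

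**Figure D4:**
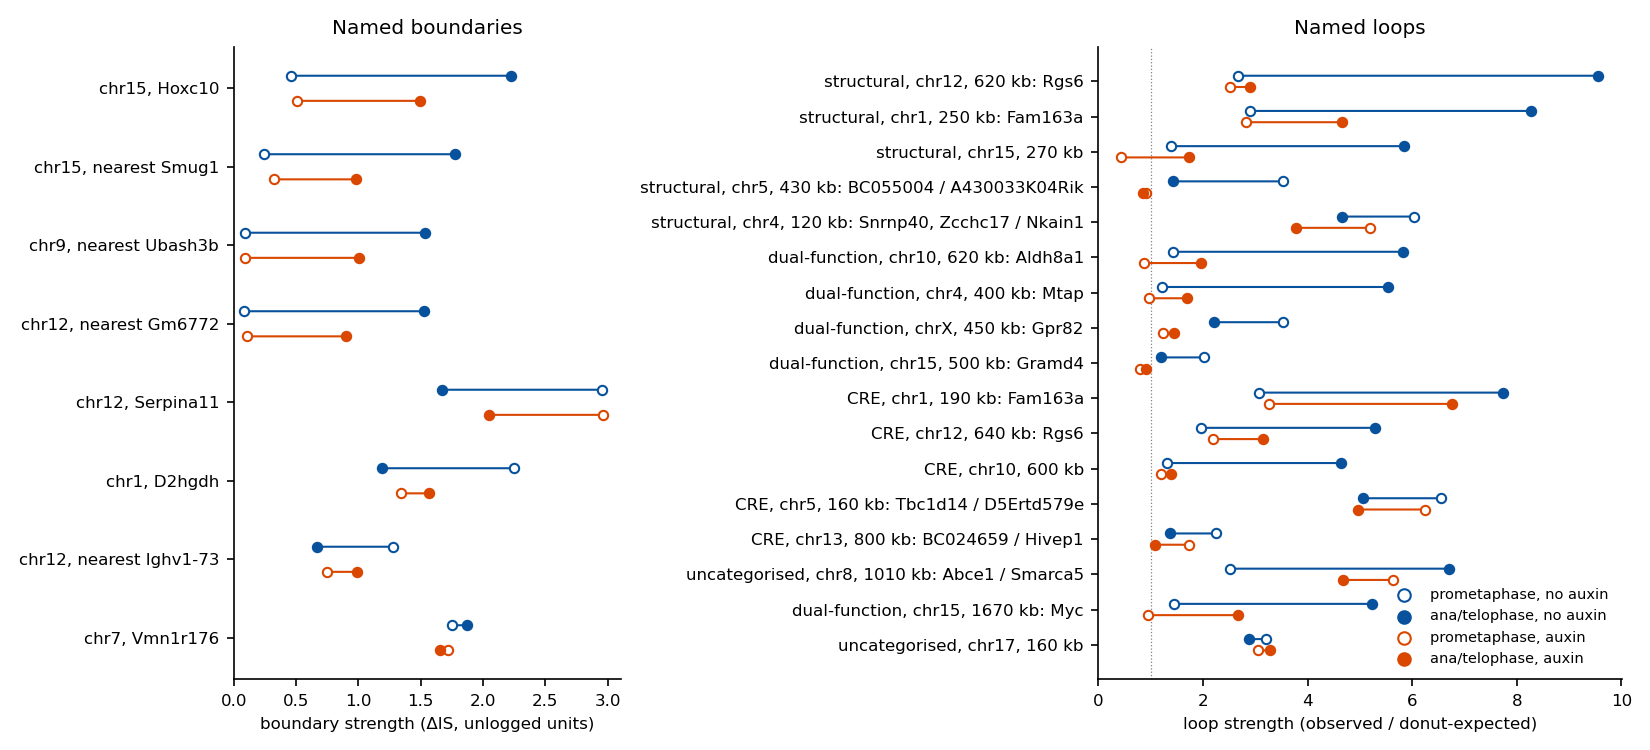
Named boundaries (left, ΔIS in unlogged units) and named loops (right, observed over donut-expected contacts) in prometaphase (open circles) and ana/telophase (filled circles), without auxin (blue) and with auxin (orange). Each line is 1 boundary or loop with 1 merged value per condition. The Rgs6 structural loop goes from 2.67 to 9.55 without auxin and from 2.52 to 2.90 with it, and the Serpina11 boundary from 2.96 to 1.67.

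Genes of 4 lists were looked up by transcription starts within 15 kb of an anchor or boundary midpoint. Neighbouring genes can share loops. Of 24 annotated erythroid effector genes (of 26 listed), 19 had a loop, and 41 of their 62 loops (66.1%) gained at least 1.5-fold, against 43.8% of all loops. Their median log2 ratio was 0.70, against 0.52 for all loops. With auxin it was 0.46, against 0.32 for all loops. The other lists had 0.35 (erythroid regulators), 0.49 (G1 entry and growth) and 0.49 (loop machinery) with auxin. At Cpox, a heme synthesis enzyme, all 8 loops gained, the largest being a 360 kb structural loop that went from 0.608 to 3.44. At Alad, another heme synthesis enzyme, all 4 loops gained, and a 1020 kb CRE loop went from 1.64 to 3.77. At Urod, of the same pathway, all 4 loops gained as well. All 3 boundaries of the list were at least 2-fold higher, against 64.5% of all boundaries, those at Cpox from 0.200 to 1.32 and at Urod from 0.0449 to 0.668.

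The erythroid regulators had 96 loops at 21 of 22 genes, of which 35 (36.5%, against 43.8% of all loops) gained and 1 fell, with a median log2 ratio of 0.44, against 0.52 for all loops. A dual-function loop at Tal1, a transcription factor of blood formation, went from 0.960 to 2.60, and a CRE loop at Cited2, a transcriptional coregulator, from 0.481 to 2.19. At Lyl1, a relative of Tal1, a dual-function loop went from 1.31 to 3.17, the only gain among its 4 loops. Of 2 loops at Gata1 none gained and 1 fell, and neither of the 2 at Nfe2, a subunit of an erythroid activator, passed the threshold. All 5 boundaries of the list were at least 2-fold higher (64.5% of all boundaries were), as at Runx1, a hematopoietic transcription factor, from 0.159 to 0.866.

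Genes of G1 entry and growth had 100 loops, of which 42 (42%, against 43.8% of all loops) gained and none fell, with a median log2 ratio of 0.52, as over all loops. At Myc 9 of 12 loops gained. A dual-function loop at Fos, an immediate early gene, went from 1.05 to 3.07, and a structural loop at Jun, its partner, from 0.307 to 2.13, whereas with auxin it went from 1.44 to 1.26. A CRE loop at Cdkn1b, a cyclin-dependent kinase inhibitor gene, went from 1.99 to 4.06. Of 6 boundaries 5 were at least 2-fold higher, where 64.5% of all boundaries were, as at Ccnd1, the cyclin D1 gene, from 0.249 to 1.11. Genes of the loop machinery had 39 loops, of which 15 (38.5%, against 43.8% of all loops) gained and none fell, with a median log2 ratio of 0.47, and 3 of their 5 boundaries were at least 2-fold higher. A dual-function loop at Pds5b, a cohesin regulator, went from 1.07 to 4.095, and one at Smc3, a cohesin subunit, from 1.11 to 2.72. At Ncapg, a condensin subunit, 3 of 4 loops gained.

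**Figure D5:**
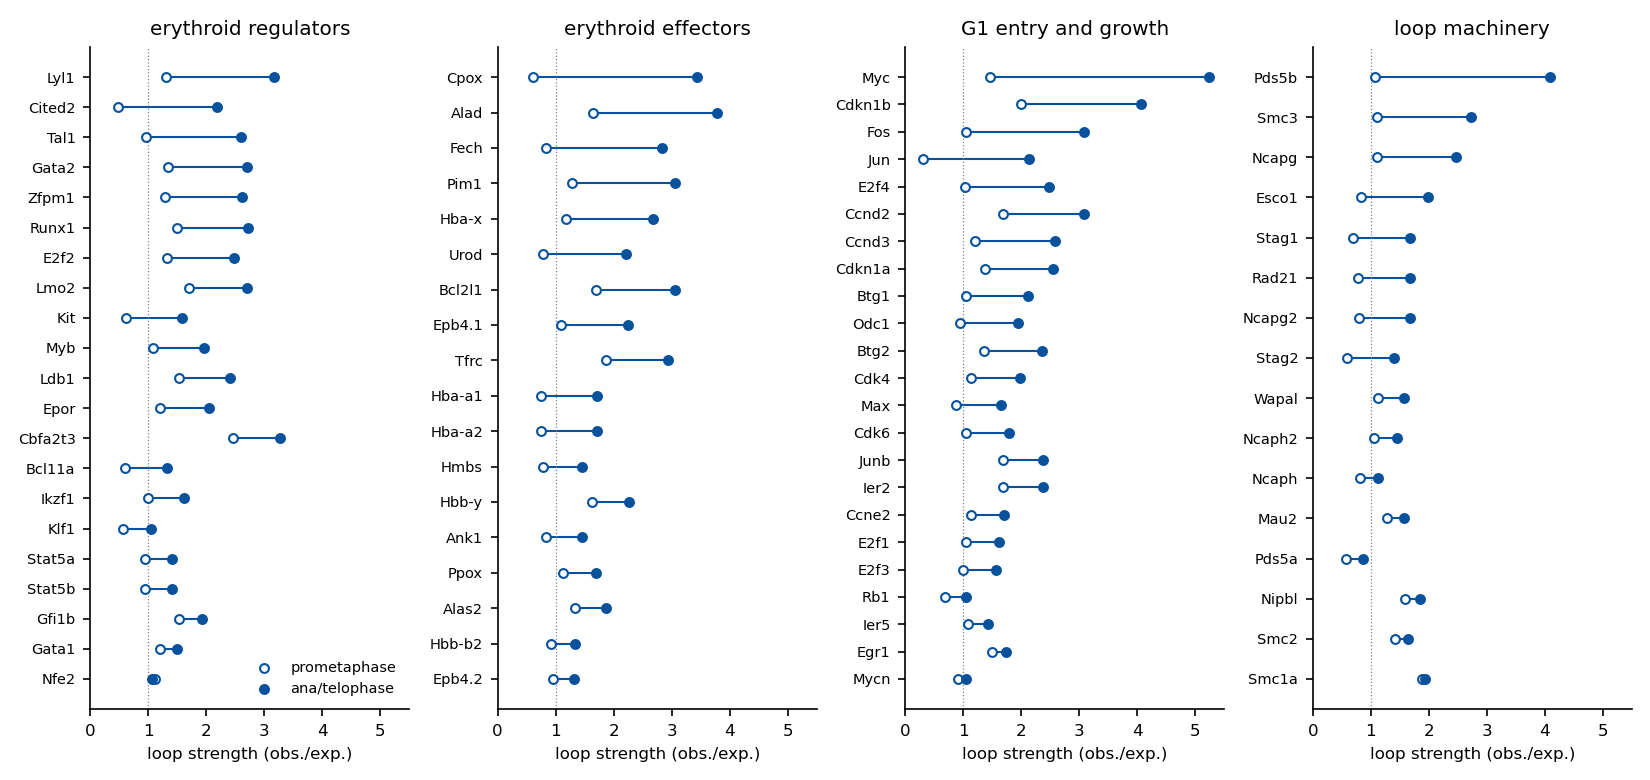
Strength (observed over expected contacts) of the loop with the largest rise at the genes of the 4 lists that are reported here, in prometaphase (open) and ana/telophase (filled), without auxin. Genes are ordered by the rise, which picks high changes by its construction, and the dotted line marks 1. The largest rise is that at Myc, from 1.45 to 5.23, and the loop at Nfe2 did not rise.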

How the data were processed

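In situ Hi-C (DpnII) was done on sorted cells, and the authors mapped reads to mm9 with HiC-Pro 2.10.0 (Bowtie2). They merged the libraries of each stage and treatment, 3 for mid-G1 and 2 for prometaphase, ana/telophase and early-G1. Domains were called with rGMAP 1.4 and loops on maps made with juicer_tools 1.13.02. The boundary values are a signal deposited by the authors: the highest unlogged insulation within 120 kb minus that at the boundary. The loop values are a ratio deposited by the authors, observed over donut-expected contacts as the mean of 9 pixels. Depth per boundary or loop is unknown. The replicates are merged in these tables and the maps of single libraries were not analysed here, so no test was run. From these, log2 ratios without pseudocount, medians per chromosome, counts past 2-fold (boundaries) or 1.5-fold (loops) and the share of the rise to mid-G1 were computed (Python 3.11.15, pandas 2.3.3, numpy 2.4.6), and checked on simulated data. Genes came from GENCODE on NCBIM37 and the 13-base core CTCF consensus was matched on both strands. Named are the 4 largest rises and 3 largest falls of ΔIS and the 3 highest in prometaphase, per category (structural, dual-function, CRE) the 3 largest rises and 2 largest falls of loops with 10 kb summits, by difference, the 2 largest rises above 1000 kb, and up to 6 genes per gene list, and 2 of these are not reported here. Members, lists and rules were chosen with earlier results of these data known. Alternatives covered pseudocounts, fold thresholds, summit size, windows and filters.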

Additional observations from a re-analysis of the deposited data

Results flagged for a closer look

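Of the boundaries and loops given above, a few moved in opposite directions without and with auxin. The difference was not tested in any of them, since each condition has 1 merged value. The boundary at D2hgdh on chromosome 1 had a log2 ratio of ana/telophase to prometaphase of -0.92 without auxin and 0.23 with auxin. The boundary next to Ighv1-73 on chromosome 12 had -0.94 and 0.40, and that at Vmn1r176 on chromosome 7 had 0.10 and -0.06. The dual-function loop at Gpr82 on chromosome X had -0.68 and 0.23, and that at Gramd4 on chromosome 15 had -0.76 and 0.20. The uncategorised loop between Abce1 and Smarca5 on chromosome 8 had 1.41 and -0.27, and the loop called in prometaphase on chromosome 17 had -0.16 and 0.10. The structural loop at Jun on chromosome 4 had 2.79 and -0.19.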

How the results depend on the processing

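No paired analysis was possible because the call tables used here hold 1 merged value per stage, and for the same reason no library could be left out. The maps of single libraries were not analysed here. Neither counting error nor the spread between cultures could be estimated from these tables. Of 117 alternative values over 21 results, 70 stayed within the SD over chromosomes (medians and shares) or within 1.5 times (counts), 45 moved by more than that and 2 changed sign. The median log2 ratio of boundaries, 1.52, became 1.12 and 0.90 with pseudocounts of 0.05 and 0.1, 1.86 among boundaries of at least 0.2 in mid-G1 and 1.68 without cluster 5. The 381 boundaries that fell became 114 and 18 with these pseudocounts, 27 with that filter, 132 without cluster 5, and 612 and 190 at 1.5-fold and 3-fold thresholds. With pseudocounts of 0.25 and 0.5, the loop ratio became 0.51 and 0.44 for structural, 0.48 and 0.41 for dual-function, 0.39 and 0.34 for CRE and 0.34 and 0.29 for uncategorised loops. In the same order it became 0.66, 0.68, 0.60 and 0.50 among loops of at least 1.5 in mid-G1. With 10 kb summits it was 0.69 for structural, 0.64 for dual-function and 0.55 for CRE loops, as a ratio of means 0.71 for structural and 0.64 for dual-function loops, and 0.54 for CRE loops called without auxin. The 7169 loops that gained became 4286 with a pseudocount of 0.5, 11182 at a laxer threshold and 2604 at 2-fold. The 42 that fell became 24 and 12 with the pseudocounts, 24 with the mid-G1 filter, 26 among loops called without auxin, 243 at that laxer threshold and 7 at 2-fold. The recovery of CRE loops, 77.7%, became 71.8% as a median of single loops and 72.2% among loops called without auxin. The size difference became -0.50 (structural) and -0.35 (CRE) with 10 kb summits, and for CRE loops it turned to 0.00666 among loops called without auxin and 0.0442 with the mid-G1 filter, from -0.00342. The gap by transcription start became 0.0827 and that by loop anchor 0.45 with the mid-G1 filter on boundaries. The difference from auxin for structural loops, 0.41, became 0.35 and 0.30 with the pseudocounts, an alternative chosen after seeing the data. The cause of these shifts was not tested.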
